A study of Mus musculus with 6 samples.

Results

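Expression of 46 genes of the G1/S transition and of DNA replication was compared between mouse primary pulmonary fibroblasts made senescent with Nutlin 3a (3 libraries) and quiescent fibroblasts of the same kind (3 libraries). The genes were chosen by symbol, with earlier results of these data known. All 46 were among the 25239 rows of the gene table, and all 46 were among the 14065 genes that passed the filter on low counts. They comprise 10 licensing genes, 6 genes of helicase activation, 18 genes of the replication fork, 2 of chromatin assembly, 5 of nucleotide supply and 5 G1/S regulators.

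Nutlin 3a keeps Mdm2 from binding p53. Per the labels, cells were synchronised for 16 hours with the Cdk1 inhibitor RO3306, held in Nutlin 3a for 48 hours and then kept in the Plk1 inhibitor BI-2536 at 100 nM to remove cells that still divided, with 12 days given as the total. This text stands on the quiescent samples too, which are named from the sample titles. The sources used here do not give how those cells were made quiescent. The labels give 10% serum and 5% oxygen on all samples, and for the quiescent cells these values carry the same limit. Whether the libraries of a group are separate cultures or animals is not in the labels, and the p-values therefore reflect the variation among these libraries alone, part or all of which could be technical. Selection against dividing cells, the drugs and senescence itself cannot be told apart in this design.

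Before S phase, the origin recognition complex, Cdc6 and Cdt1 load the ring of Mcm2 to Mcm7 onto DNA, which licenses an origin. At the G1/S transition kinases bring Cdc45 and the GINS complex to the ring and so form the active helicase, and primase, polymerases, the PCNA clamp and its RFC loader then copy the DNA. Much of this machinery is transcribed under E2F factors, which proteins of the retinoblastoma family hold back in resting cells, and p53 acts on the same circuit through p21.

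Because E2F sites are the best known shared element of these genes, exact E2F words were searched in RefSeq promoter windows (GRCm38.p6, the assembly that mm10 names) of 250 bases before to 50 after the start site, on both strands. The words were TTTCCCGC, TTTCGCGC, TTTGCCGC and TTTGGCGC. The table held windows for 36 of the 46 genes, and 13 of these 36 (36.1%) carried at least 1 word, beside 2.6% of all 27025 genes in the table. Among licensing genes the count was 7 of 9, and in nucleotide supply it was 0 of 5. The 5 stretches below are shown because they hold words of licensing and helicase genes and of the polymerase alpha catalytic subunit; capitals mark the words, on either strand, and each stretch reads 5′ to 3′ on the gene's strand.

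Mcm5 (chr8:75109319-75109399, plus strand, positions -190 to -110 from the start site): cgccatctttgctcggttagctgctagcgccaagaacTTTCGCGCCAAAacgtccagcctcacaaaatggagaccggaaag
Mcm6 (chr1:128359736-128359825, minus strand, -120 to -31): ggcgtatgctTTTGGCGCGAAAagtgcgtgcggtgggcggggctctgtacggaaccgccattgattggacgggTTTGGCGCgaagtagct
Orc1 (chr4:108579416-108579445, plus strand, -38 to -9): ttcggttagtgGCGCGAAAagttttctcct
Gins3 (chr8:95633507-95633536, plus strand, -52 to -23): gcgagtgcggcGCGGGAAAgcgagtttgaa
Pola1 (chrX:93632255-93632335, minus strand, -180 to -100): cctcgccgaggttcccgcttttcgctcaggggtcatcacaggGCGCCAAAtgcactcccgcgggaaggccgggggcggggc

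In Mcm5 and in Mcm6 a pair of words on opposite strands overlapped into a run of 12 bases, and the run of Mcm5 was the reverse complement of that of Mcm6. In the whole table only the windows of Mcm5, Mcm6, Msh3 and Mycn held this run, which was looked for after it had been seen in the printed stretches. The stretches of Mcm5, Mcm6 and Pola1 lie outside annotated exons, while 23 of the 30 bases of the Orc1 stretch and all 30 of the Gins3 stretch are exonic in GENCODE M21. The ribonucleotide reductase genes had no E2F word in their windows. Their stretches are shown with capitals on CCAAT, the word bound by NF-Y, which was present in 22 of the 36 genes (61.1%) and in 41.1% of all genes in the table. In nucleotide supply the count was 2 of 5 (40%), namely Rrm1 and Rrm2.

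Rrm2 (chr12:24708134-24708223, plus strand, -120 to -31): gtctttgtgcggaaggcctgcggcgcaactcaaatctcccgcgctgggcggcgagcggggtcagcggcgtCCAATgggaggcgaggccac
Rrm1 (chr7:102441545-102441664, plus strand, -150 to -31): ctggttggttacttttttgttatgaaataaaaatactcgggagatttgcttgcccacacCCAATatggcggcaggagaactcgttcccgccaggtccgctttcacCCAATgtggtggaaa

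TTTGAA, a word of the cell cycle homology region typical of later cell cycle genes, was in 6 of the 36 genes (16.7%) and in 20.2% of all genes. These are matches of letters in a window, and a missing match says only that these exact letters are not in it.

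**Figure D1:**
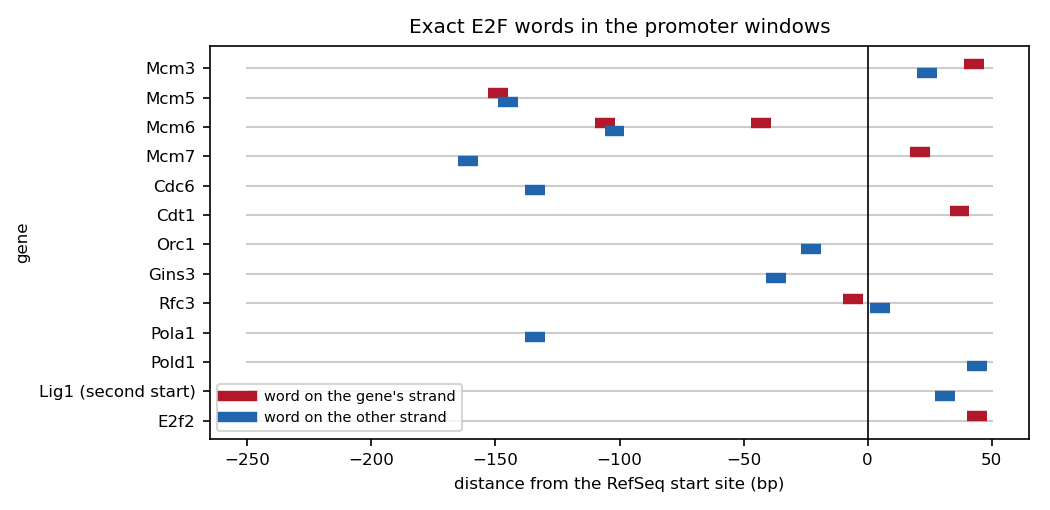
Position of each exact E2F word in the 13 genes that held one, as distance in bases from the RefSeq start site; red bars are words on the gene's strand and blue bars words on the other strand. Of 19 matches, 11 began upstream of the start site and 8 at or after it, and in Mcm5 and Mcm6 a red and a blue bar overlap.

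Most of the 46 genes were lower in senescent cells. The quasi-likelihood test of edgeR, adjusted over all tested genes, called 38 of the 46 as lower and 0 as higher, where it called 37.8% of all tested genes as lower and 36.7% as higher, 74.5% in either direction (adjusted p under 0.05). At an unadjusted p under 0.05 also, 38 were lower and 0 higher, a threshold at which all genes were not counted. DESeq2 called 37 lower and 0 higher, beside 4788 lower and 4976 higher of all 14065 tested genes. The median log2 fold change of the 46 genes was -0.61, or 65.5% of the quiescent level, beside -0.02 over all tested genes. With library totals as the only scaling the median of all tested genes moved to -0.32, with 7435 called lower and 2952 higher. The 46 genes then had -0.91 with all 46 lower. The gap to all tested genes was -0.59 with either scaling. A change of scaling shifts all genes by nearly the same amount, so an equal gap is no test of the scaling. With upper quartile factors 41 of the 46 were lower, beside 6005 lower and 4474 higher of all 14065 tested genes. Single estimates ran from -1.57 for Tk1 to 0.04 for Pcna. Summed over the 46 genes, the level was 245, 238 and 224 CPM (counts over the TMM-adjusted library total, on the usual CPM scale) in senescent libraries, against 334, 343 and 356 CPM in quiescent libraries. For 39 of the 46 genes all senescent libraries lay below all quiescent libraries, as they did for 39.9% of all tested genes.

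**Figure D2:**
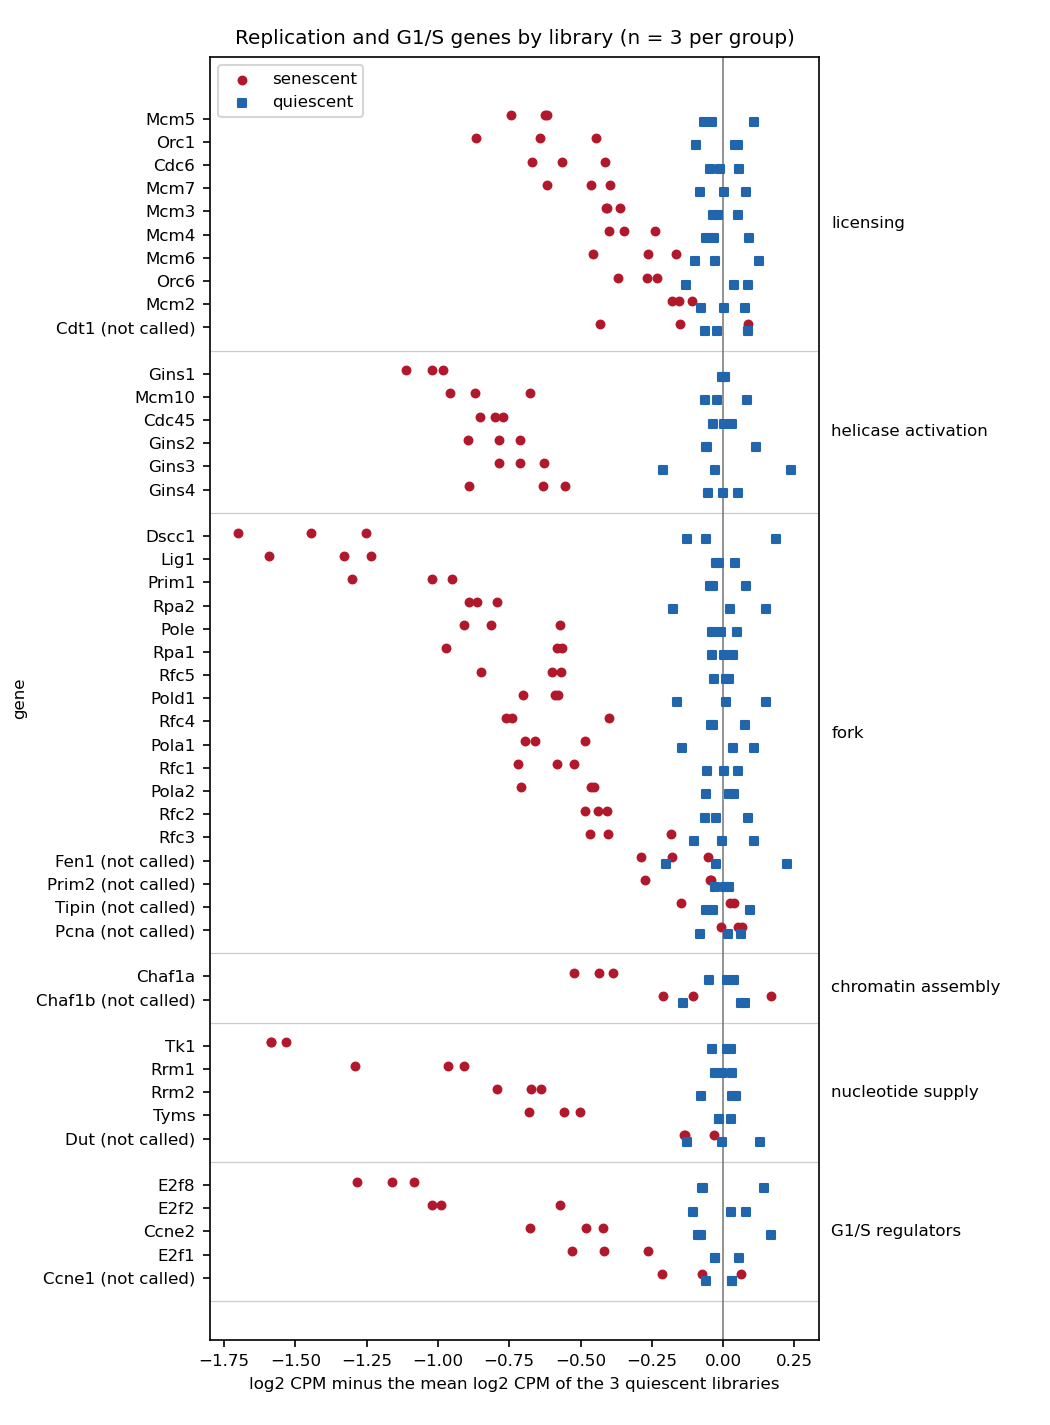
Level of each of the 46 genes in every library, as log2 CPM minus the mean log2 CPM of the 3 quiescent libraries; red circles are senescent and blue squares quiescent libraries, and genes are grouped by role and sorted by fold change. For 39 genes the red points all lie left of the blue points, and the 8 genes that edgeR did not call carry that remark beside their names.

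Gene counts ran from 93736593 to 109706025 per library, of which the rows Rn45s, Lars2 and Mir6236, treated as ribosomal, held 79.8% to 82.8%, and counts of the 46 genes lay between 21 and 3804. The library totals behind all CPM values include these rows, so the values are far lower than they would be without them. The fibroblast markers Col1a1, Col1a2, Col3a1, Dcn, Lum, Pdgfra, Pdgfrb and Vim were present in every library and summed to 2150 to 2623 CPM in senescent and 3855 to 3942 CPM in quiescent libraries. Of these markers 5 were lower, with Col3a1 the lowest (log2 fold change -1.945). Dcn (0.18) and Vim (0.32) were higher, and Col1a1 was not called. The 8 markers of dividing cells summed to 20.3 to 24.6 CPM in senescent and 107 to 112 CPM in quiescent libraries, and all 8 were lower, with a median log2 fold change of -2.23. Among them Mki67, the Ki-67 antigen gene, had a log2 fold change of -2.33 and Cdk1, the mitotic kinase gene, one of -1.67. Mki67 had 12.0, 9.71 and 9.59 CPM in senescent libraries, against 51.6, 55.0 and 51.1 CPM in quiescent libraries. How far the quiescent cells were at rest was not tested. In bulk RNA, fewer cycling cells and less of a transcript per cell cannot be told apart, and the part of cycling cells in the results was not tested. Of 8 macrophage and leukocyte markers 5 were tested and all 5 were higher; the 8 summed to 10.7 to 14.04 CPM in senescent and 3.94 to 4.23 CPM in quiescent libraries, and Ptprc, Adgre1 and Marco were at or near 0. The 6 endothelial markers summed to 3.42 to 4.99 CPM in senescent and 5.13 to 5.68 CPM in quiescent libraries, with Pecam1 and Emcn near 0. Their called members moved in opposite directions, with Cdh5 higher (log2 fold change 2.32) and Tek lower (-2.67). The 7 epithelial markers summed to 0.514 to 0.777 CPM in senescent and 0.301 to 0.379 CPM in quiescent libraries, with Epcam, Cdh1, Sftpc, Sftpb, Scgb1a1 and Krt5 at or near 0. Krt18 alone among them was tested and was higher (log2 fold change 1.545, edgeR adjusted p = 7.8e-05). It had 40 to 65 counts in senescent and 18 to 25 counts in quiescent libraries. The part of such other cells in the results was not tested.

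Of the 10 licensing genes 9 were lower and 1 was not called, where 37.8% of all tested genes were lower. The median log2 fold change was -0.36. Mcm5, a subunit of the helicase ring (chr8:75109569-75128439, plus strand; gene coordinates are those of GENCODE M21 on GRCm38), had 7.20, 7.17 and 6.61 CPM in senescent libraries, against 10.5, 10.8 and 11.9 CPM in quiescent libraries. No senescent library came near the lowest quiescent one, and the log2 fold change was -0.66 with a standard error of 0.07 (edgeR adjusted p = 3.1e-06). Its partner Mcm2 had 13.0, 12.4 and 12.6 CPM in senescent libraries, against 13.3, 14.03 and 14.8 CPM in quiescent libraries, so the groups were nearly adjacent. Mcm2 changed by -0.15 with a standard error of 0.06 (edgeR adjusted p = 0.03), and this call was lost with DESeq2 (adjusted p = 0.099) and without senescent replicate 2, quiescent replicate 2 or quiescent replicate 3 (edgeR adjusted p = 0.081, 0.078 and 0.14). The 95% intervals of the log2 fold changes of Mcm5, -0.81 to -0.52, and of Mcm2, -0.27 to -0.03, did not overlap. Mcm7 (-0.49), Mcm3 (-0.39), Mcm4 (-0.33) and Mcm6 (-0.29), the other ring subunits, fell by amounts between those.

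Levels per length show how the ring subunits stood to each other. Per kb of transcript, the mean level of the 6 ring genes lay between 2.07 and 3.89 CPM in senescent cells and between 3.28 and 5.44 CPM in quiescent cells. Mcm5 was the lowest of the 6 in both groups, at 2.07 ± 0.0992 CPM per kb in senescent and 3.28 ± 0.22 CPM per kb in quiescent cells (SD, n = 3 each). Mcm7, Mcm3 and Mcm2 had mean levels of 3.87, 3.89 and 3.75 CPM per kb in senescent cells, with libraries that overlapped. In quiescent cells they had 5.44, 5.11 and 4.16 CPM per kb, and there Mcm2 lay below Mcm3 and Mcm7 in all 3 libraries. The transcript length is that of 1 principal transcript per gene, so these levels depend on which transcripts the cells use.

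Cdc6, the loader ATPase, fell to 68.5% of the quiescent level (log2 fold change -0.55, standard error 0.08), and Orc1 and Orc6, of the origin recognition complex, had log2 fold changes of -0.64 and -0.29, both lower. Cdt1, which brings the ring to the origin and is kept in check by geminin, was the only licensing gene not called. It had 3.41, 2.80 and 4.02 CPM in senescent libraries, against 4.02, 3.62 and 3.73 CPM in quiescent libraries, and the groups overlapped, with senescent replicate 3 as high as the highest quiescent library. Its log2 fold change was -0.14 with a 95% interval of -0.40 to 0.11 (edgeR adjusted p = 0.27). Without senescent replicate 3 it was -0.28 and passed (edgeR adjusted p = 0.0071), and without senescent replicate 2 it was -0.03 (edgeR adjusted p = 0.82). Gmnn, the geminin gene, had 1.64, 1.94 and 1.62 CPM in senescent libraries, against 3.462, 3.17 and 3.79 CPM in quiescent libraries, which is 49.9% of the quiescent level. The within-library log2 count ratio of Cdt1 over Gmnn was 1.05, 0.53 and 1.31 in senescent libraries, against 0.21, 0.19 and -0.03 in quiescent libraries. All senescent ratios were the higher ones, with a difference of 0.84 and an exact two-sided permutation p of 0.1, the smallest that 3 against 3 libraries allow.

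All genes of helicase activation were lower, with 6 of 6 called, where 37.8% of all tested genes were lower. The median log2 fold change was -0.80. Gins1, a GINS subunit gene, had 0.641, 0.659 and 0.603 CPM in senescent libraries, against 1.30, 1.31 and 1.30 CPM in quiescent libraries, from counts of 59 to 64 and of 138 to 155. The libraries of each group agreed closely, and the log2 fold change was -1.04 with a standard error of 0.12 (edgeR adjusted p = 8e-06). The other GINS genes had log2 fold changes of -0.80 for Gins2, -0.72 for Gins3 and -0.69 for Gins4. Of the exon bases of Gins2, 67.3% overlap Gse1 on the other strand, and the sources used here do not give whether counting used strand, so its counts are uncertain. Cdc45, the helicase cofactor, had 1.77, 1.68 and 1.74 CPM in senescent libraries, against 3.04, 3.09 and 2.95 CPM in quiescent libraries, and fell by 0.81 on the log2 scale. Mcm10, which is needed for the helicase to start unwinding, fell by 0.83. The 6 genes fell in a range of -1.04 to -0.69, where the ring genes ranged from -0.66 to -0.15. The ranges came closest at Gins4 and Mcm5, whose 95% intervals, -0.88 to -0.50 and -0.81 to -0.52, nearly coincided. The difference between the sets was not tested.

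**Figure D3:**
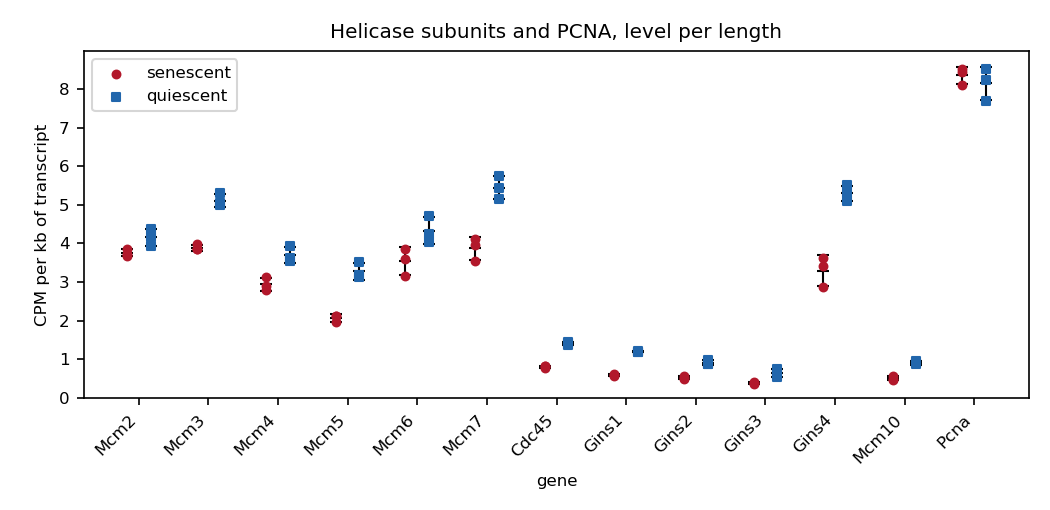
Level per kb of transcript (CPM per kb) of the helicase genes and Pcna in each library, with mean and SD of 3 libraries; red circles are senescent and blue squares quiescent. The ring genes have 2.07 to 3.89 CPM per kb in senescent cells, while Cdc45, Mcm10 and the GINS genes other than Gins4 lie below every ring gene in each group, and Pcna has the highest level in both groups.

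At the fork 14 of 18 genes were lower, 0 higher and 4 were not called, where 37.8% of all tested genes were lower. The median log2 fold change was -0.62. Lig1, the ligase that seals Okazaki fragments (chr7:13277283-13311433, plus strand), had 5.84, 6.25 and 4.87 CPM in senescent libraries, against 14.4, 14.5 and 15.1 CPM in quiescent libraries. Every senescent library held less than the lowest quiescent one by a wide margin, and the level was 38.4% of the quiescent one (log2 fold change -1.38, standard error 0.08, edgeR adjusted p = 3.2e-08). Dscc1, a subunit of the alternative clamp loader that serves sister chromatid cohesion, had 28, 21 and 33 counts in senescent libraries, against 78, 83 and 92 counts in quiescent libraries. It had the lowest counts of the 46 genes, and its log2 fold change of -1.45 carried the largest standard error, 0.18. Prim1, the catalytic primase subunit gene, had 1.77, 1.69 and 1.39 CPM in senescent libraries, against 3.34, 3.63 and 3.321 CPM in quiescent libraries, a log2 fold change of -1.09. Prim2, the regulatory primase subunit gene, had 3.70, 3.69 and 3.15 CPM in senescent libraries, against 3.73, 3.82 and 3.86 CPM in quiescent libraries. The Prim2 groups were adjacent without overlap. Prim2 did not pass (edgeR adjusted p = 0.21), though with upper quartile factors it was lower (-0.21, edgeR adjusted p = 0.034). Its 95% interval of -0.30 to 0.06 lay above that of Prim1, -1.31 to -0.86.

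The polymerase genes fell, with Pola1 at -0.61 and Pola2 at -0.53 for polymerase alpha, Pold1 at -0.63 for the catalytic subunit of polymerase delta and Pole at -0.76 for that of polymerase epsilon. All 5 RFC genes were lower, between -0.66 for Rfc5 and -0.35 for Rfc3. Genes on the other strand overlap 15.1% of the exon bases of Rfc2, 12.65% of those of Rfc4 and 10.69% of those of Rfc5. Rfc3 did not pass without senescent replicate 1 or quiescent replicate 3 (edgeR adjusted p = 0.061 and 0.06). The ratio of Rfc1, the large subunit, over the 4 small subunits was 2.54, 2.69 and 2.49 on the log2 scale in senescent libraries, against 2.63, 2.70 and 2.65 in quiescent libraries, and the groups overlapped (difference -0.09, exact two-sided permutation p = 0.3). Rpa1 and Rpa2, which coat single-stranded DNA, fell by 0.70 and 0.86 on the log2 scale. Rpa1 had 18.4, 18.2 and 13.9 CPM in senescent libraries, against 26.5, 27.3 and 27.8 CPM in quiescent libraries, and senescent replicate 3 was the lowest.

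Pcna, the clamp gene and also a p53 target (chr2:132249162-132253314, minus strand), was not called while its loader genes fell. It had 12.3, 12.8 and 12.9 CPM in senescent libraries, against 12.9, 11.7 and 12.5 CPM in quiescent libraries. The groups overlapped, and the log2 fold change of 0.04 had a 95% interval of -0.09 to 0.16 (edgeR adjusted p = 0.57). Its sign depended on the scaling: it was -0.06 with upper quartile factors, -0.26 with library totals and -0.01 without quiescent replicate 2. Per kb, Pcna held 8.35 ± 0.224 CPM in senescent and 8.15 ± 0.418 CPM in quiescent cells (SD, n = 3 each), the highest mean of the 46 genes in both groups. Tipin, a fork protection gene, had a log2 fold change of -0.03 with an interval of -0.20 to 0.14, and Fen1, the flap endonuclease gene, one of -0.18 with an interval of -0.41 to 0.05. Tipin was at 0.04 without senescent replicate 3 and at 0.02 without quiescent replicate 3. Fen1 passed without quiescent replicate 1 (log2 fold change -0.28, edgeR adjusted p = 0.031) and with upper quartile factors (-0.27, edgeR adjusted p = 0.034), and 84.2% of its exon bases overlap other genes on the opposite strand, so its counts are uncertain.

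Of the chromatin assembly factor genes, Chaf1a had 11.9, 12.2 and 11.1 CPM in senescent libraries, against 15.5, 16.1 and 16.4 CPM in quiescent libraries, and fell by 0.45 on the log2 scale. Chaf1b, the partner subunit, had 3.07, 2.36 and 2.54 CPM in senescent libraries, against 2.85, 2.47 and 2.88 CPM in quiescent libraries, and was not called. Its log2 fold change of -0.04 had a 95% interval of -0.28 to 0.20, and it was 0.04 without senescent replicate 2 and 0.00 without senescent replicate 3. For Chaf1a, 52.5% of exon bases overlap Ubxn6 on the other strand. Leaving out every gene with any exon overlap, 22 of 29 genes were lower, with a median log2 fold change of -0.55. Of all tested genes, overlapping or not, 37.8% were lower.

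In nucleotide supply 4 of 5 genes were lower and 1 was not called, where 37.8% of all tested genes were lower. Tk1, the cytosolic thymidine kinase gene of S phase (chr11:117815526-117826092, minus strand), had the lowest estimate of the 46. It had 1.89, 1.97 and 1.90 CPM in senescent libraries, against 5.53, 5.80 and 5.74 CPM in quiescent libraries. The level was 33.7% of the quiescent one, with a log2 fold change of -1.57 and a standard error of 0.07 (edgeR adjusted p = 4.4e-09). Rrm1, the large subunit gene of ribonucleotide reductase, had 16.7, 16.1 and 12.8 CPM in senescent libraries, against 30.8, 32.1 and 31.3 CPM in quiescent libraries, a log2 fold change of -1.05. Rrm2, the S phase small subunit gene, had 7.16, 6.98 and 6.44 CPM in senescent libraries, against 10.6, 11.4 and 11.5 CPM in quiescent libraries, a log2 fold change of -0.70. Both reductase genes were lower in each senescent library than in any quiescent one. Rrm2b, the p53-induced small subunit gene, had 2.96, 3.30 and 2.62 CPM in senescent libraries, against 2.62, 3.26 and 2.69 CPM in quiescent libraries, and was not called (log2 fold change 0.04, edgeR adjusted p = 0.74). Its sign turned with upper quartile factors (-0.05), with library totals (-0.26) and without senescent replicate 2 (-0.04) or quiescent replicate 1 (-0.02). The log2 count ratio of Rrm2 over Rrm2b was 1.28, 1.08 and 1.29 in senescent libraries, against 2.01, 1.80 and 2.10 in quiescent libraries, a difference of -0.75 without overlap (exact two-sided permutation p = 0.1). Tyms, the thymidylate synthase gene, fell by 0.58, and Dut, the dUTPase gene, had a log2 fold change of -0.11 with a 95% interval of -0.28 to 0.07. Dut was lower with upper quartile factors (-0.20, edgeR adjusted p = 0.037).

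Among the G1/S regulators 4 of 5 were lower, where 37.8% of all tested genes were lower. Ccne1 and Ccne2 encode the E-type cyclins that drive Cdk2 at the G1/S transition. Ccne1 had 4.64, 5.10 and 4.21 CPM in senescent libraries, against 4.99, 4.68 and 4.98 CPM in quiescent libraries, and the groups overlapped (log2 fold change -0.07, 95% interval -0.25 to 0.10). Ccne2 had 1.76, 1.48 and 1.69 CPM in senescent libraries, against 2.22, 2.23 and 2.65 CPM in quiescent libraries, and was lower (log2 fold change -0.52, edgeR adjusted p = 0.001). The log2 count ratio of Ccne1 over Ccne2 was 1.39, 1.79 and 1.31 in senescent libraries, against 1.17, 1.06 and 0.91 in quiescent libraries, a difference of 0.45 without overlap (exact two-sided permutation p = 0.1). Of the exon bases of Ccne2, 17.4% overlap Ints8 on the other strand.

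**Figure D4:**
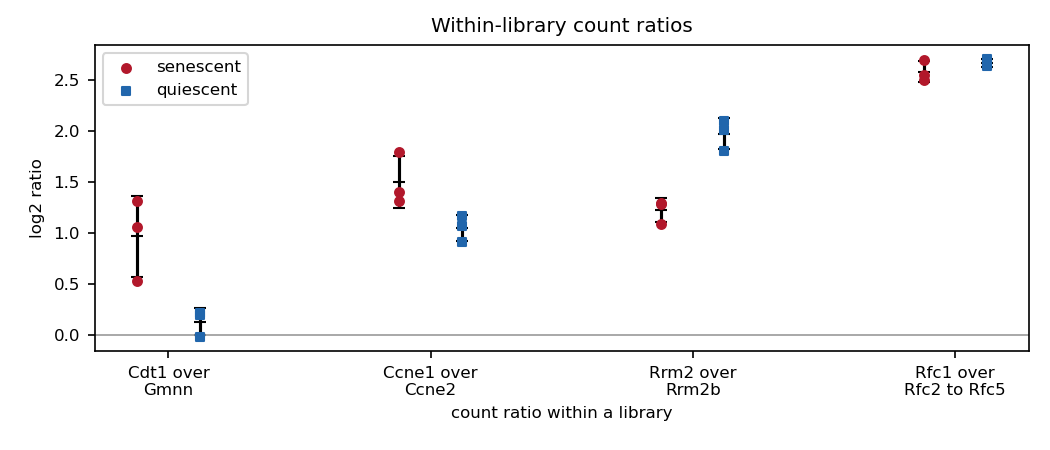
Log2 count ratio of 2 genes within each library for 4 ratios, with mean and SD of 3 libraries; red circles are senescent and blue squares quiescent. The ratios of Cdt1 over Gmnn and Ccne1 over Ccne2 were higher and that of Rrm2 over Rrm2b lower in all senescent libraries, and the RFC ratio overlapped.

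E2f1, an activating E2F gene, had 6.68, 7.44 and 6.19 CPM in senescent libraries, against 9.28, 8.77 and 8.76 CPM in quiescent libraries, and fell by 0.40 on the log2 scale. E2f2, a second activator, fell by 0.84 and had 40 to 61 counts in senescent and 98 to 102 counts in quiescent libraries. E2f8, an atypical repressor that is itself an E2F target, had 2.45, 2.32 and 2.14 CPM in senescent libraries, against 4.95, 4.96 and 5.75 CPM in quiescent libraries, and fell by 1.18. The rest of the family is given here by a choice made after these values were seen. E2f7, the other atypical repressor, fell too (-1.16), whereas E2f3 (0.52), E2f4 (0.60), E2f5 (0.84) and E2f6 (0.40) were higher. The E2f6 call was lost with library totals (0.09, edgeR adjusted p = 0.38), and the other 4 calls kept their direction with each scaling tried.

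Only 7 of the 46 genes had point estimates beyond a halving, as 14.3% of all tested genes had: Tk1, Dscc1, Lig1, E2f8, Prim1, Rrm1 and Gins1. Tested directly against a change of 2-fold (glmTreat in edgeR), 3 of the 46 were lower, namely Tk1, Lig1 and Dscc1 (adjusted p = 8.7e-06, 0.00048 and 0.025), where 9.31% of all tested genes were. The 13 genes with an exact E2F word in a promoter window had a median log2 fold change of -0.61 and 12 of them were lower, and the 23 genes with a window and no such word also had -0.61, with 18 lower. Of all tested genes 37.8% were lower.

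The rest of the pathway, 79 genes listed by role, was more mixed, with 43 lower, 20 higher and 16 not called and a median log2 fold change of -0.26. Beside these counts and those of the lists below, 37.8% of all tested genes were lower and 36.7% higher. Of 15 other licensing and firing genes 11 were lower and 2 higher. Ticrr, which brings Cdc45 to origins, had -1.28 and the firing kinase gene Cdc7 had -1.09, whereas Orc4 (0.47) and Orc2 (0.27), of the origin recognition complex, were higher. Both lost this with library totals, where Orc4 had 0.18 (edgeR adjusted p = 0.095) and Orc2 had -0.03 (edgeR adjusted p = 0.8), and 29.8% of Orc2 exon bases overlap Nif3l1. Of 21 other fork genes 14 were lower and 4 higher. Top2a, the topoisomerase gene of dividing cells, had -1.98 and Timeless, the partner of Tipin, had -1.42, whereas Pole4, a small polymerase epsilon subunit gene, had 0.71 and Top1 had 0.42, the last not passing with library totals (0.12, edgeR adjusted p = 0.22).

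Of 5 other chromatin assembly genes 2 were lower and 0 higher, beside 37.8% lower and 36.7% higher among all tested genes. Asf1b, a histone chaperone gene, had -1.12 and Slbp, the histone mRNA binding protein gene, had -0.16 at an adjusted p of 0.048 in edgeR. The Slbp call was lost with DESeq2 (adjusted p = 0.13) and without senescent replicate 1 or 2 or quiescent replicate 2 or 3 (edgeR adjusted p = 0.087, 0.15, 0.11 and 0.18). Nasp (-0.02) and Rbbp4 (0.02), both histone chaperone genes, were not called, and their signs turned under some settings. Of 13 other nucleotide genes 4 were lower and 6 higher, beside 37.8% lower and 36.7% higher among all tested genes. Samhd1, the dNTP hydrolase gene, had -2.02 and Dck, the deoxycytidine kinase gene, had -0.60, whereas the nucleoside diphosphate kinase gene Nme1 had 1.35 and the pyrimidine synthesis gene Umps had 0.62. Of Nme1 exon bases 12.5% overlap the readthrough gene Gm20390, so its counts are uncertain.

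Of 25 G1 cyclins, kinases, pocket proteins and their partners, 12 were lower and 8 higher, beside 37.8% lower and 36.7% higher among all tested genes. Ccna2, the cyclin A gene, had the lowest log2 fold change at -2.08, and Rbl2, the p130 pocket protein gene, had -1.18. Rb1 and Rbl1, the other pocket protein genes and also named after their values were seen, had -0.85 and -0.36. Genes on the other strand overlap 12.49% of the exon bases of Ccna2, 20.97% of those of Rbl2 and 14.9% of those of Rb1. Ccnd2, a D-type cyclin gene, had 403, 412 and 383 CPM in senescent libraries, against 139, 141 and 130 CPM in quiescent libraries. It had the highest estimate of the list, 1.55, and Myc, the growth regulator gene, had 1.37.

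**Figure D5:**
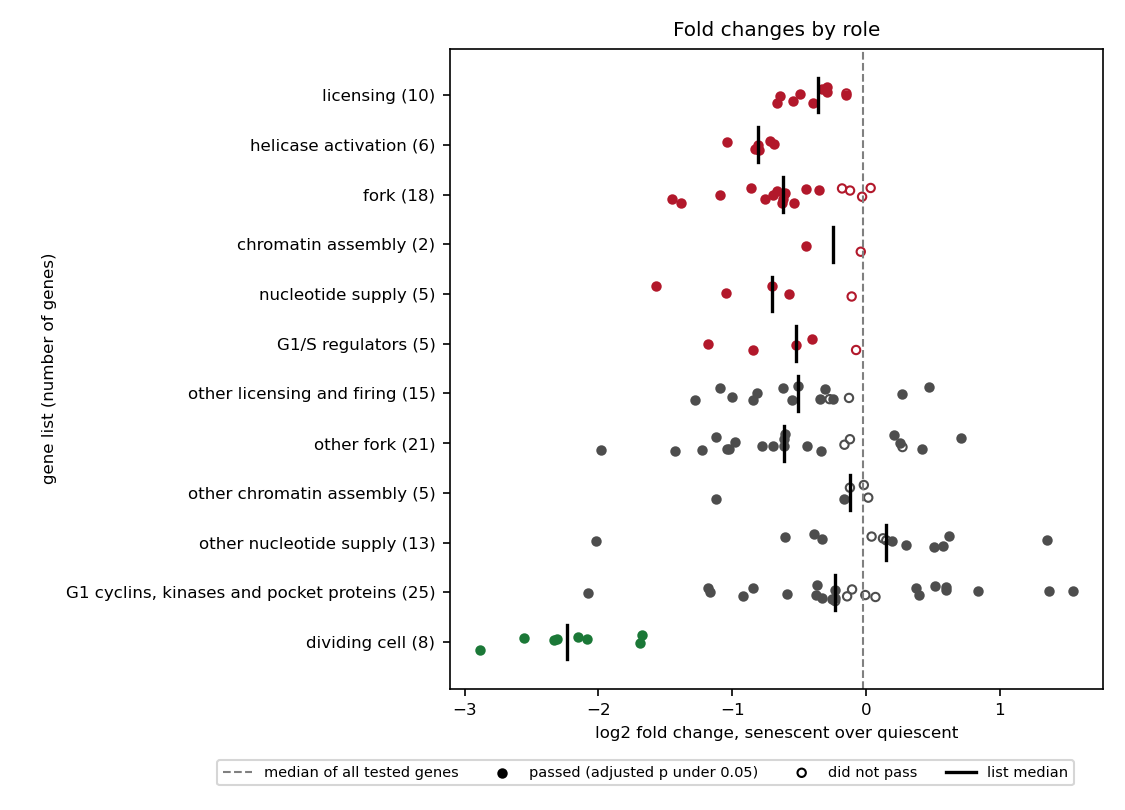
Log2 fold change of senescent over quiescent libraries for each gene, by list, with the number of genes in brackets; filled points passed at an adjusted p under 0.05 in edgeR, open points did not, black bars are list medians and the dashed line is the median of all tested genes. The 46 genes (red) lie between -1.57 and 0.04 with helicase activation at a median of -0.80, other pathway genes (grey) spread from -2.08 to 1.55, and the dividing cell markers (green) have a median of -2.23.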

How the data were processed

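RNA depleted of ribosomal RNA was sequenced from 6 mouse fibroblast libraries, 3 senescent and 3 quiescent, in 100-base reads per the labels. The authors deposited whole-number read counts per gene. The submitters' processing notes name edgeR 3.32.1 and limma 3.46.0; the sources used here do not give aligner settings or the use of strand. Genes were filtered with filterByExpr (minimum count 10), scaled by TMM and tested with the quasi-likelihood test of edgeR 4.0.16 (R 4.3.3), with Benjamini-Hochberg adjustment over all 14065 tested genes and a threshold of 0.05; the test was tried on simulated data. DESeq2 1.42.0, limma-voom (limma 3.58.1), glmTreat, other scalings, other filters, a replicate block and fits without each library were alternatives. Total counts were 93736593 to 109706025 per library. Ratios used a pseudocount of 0.5. Transcript lengths came from GENCODE M21. The members and lists were chosen with earlier results of these data known. Named genes were all 46 members, the lowest and highest 2 of each other list, Gmnn, Rrm2b, Mki67 and Cdk1; other names are stated where they occur. The table of repeat elements was not used here.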

Additional observations from a re-analysis of the deposited data

How the results depend on the processing

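Across the alternatives, 36 to 39 of the 46 genes were lower when 1 library was left out, with medians of -0.64 to -0.56; all genes called ran from 9778 to 10747 (4901 to 5416 lower, 4860 to 5331 higher), and pathway genes outside the 46 from 60 to 63 (41 to 43 lower, 18 to 20 higher). The leave-one-out ratio differences were 0.662 to 1.052 for Cdt1 over Gmnn, 0.306 to 0.542 for Ccne1 over Ccne2, -0.835 to -0.684 for Rrm2 over Rrm2b and -0.142 to -0.044 for the RFC ratio. A direct test against a 2-fold change left 3 of the 46 genes, all lower. With library totals 2952 genes in all and 10 of the other pathway genes were higher, since the median of all genes then moved to -0.32.

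Of the genes named in the text, these turned sign; genes not named were not followed across settings. With library totals the log2 fold changes were -0.262 for Pcna, -0.259 for Rrm2b, -0.029 for Orc2 and -0.28 for Rbbp4, and with upper quartile factors -0.058 for Pcna, -0.051 for Rrm2b and -0.076 for Rbbp4. Leaving out 1 library at a time, the lowest and highest values were -0.005 (without quiescent 2) and 0.064 for Pcna, -0.061 and 0.035 (without senescent 3; 0.02 without quiescent 3) for Tipin, -0.152 and 0.038 (without senescent 2; 0.004 without senescent 3) for Chaf1b, -0.038 (without senescent 2; -0.019 without quiescent 1) and 0.151 for Rrm2b, -0.051 and 0.035 (without quiescent 3; 0.025 without senescent 1) for Nasp, and -0.016 (without senescent 3) and 0.042 for Rbbp4. The cause was not tested. Same-numbered libraries had deviations correlated at 0.051, -0.01 and 0.058, so the numbers were not taken as pairing; with a replicate block 38 of the 46 genes were lower, 63 other pathway genes passed and 10405 genes in all did (5281 lower, 5124 higher).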
